A study of Azumapecten farreri with 9 samples.

Results

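The alpha and beta tubulin gene copies of the Zhikong scallop were followed one by one in circulating hemocytes, the immune cells of molluscan blood. Copies were taken as every gene whose description held the words tubulin alpha or tubulin beta, which gave 26 of the 21617 genes in the deposited table, 11 alpha and 15 beta. RNA had been sequenced from 9 libraries in 3 groups of 3, titled LPS_T, NOR_T and PBS. The scallops of the LPS_T and NOR_T groups had received an injection of exosomes, vesicles that cells shed and that carry RNA and protein, and those of the PBS group one of phosphate-buffered saline. The species is labelled Azumapecten farreri, with Chlamys farreri in the title of the series, and the stated question was how exosomes modulate immunity. Titles and group labels contradict each other for the 6 exosome libraries. The group label of LPS_T is normal exosomes, whereas that of NOR_T is exosomes made under stimulation with LPS, the lipopolysaccharide of bacterial cell walls. Groups are therefore named by title, and which of them received LPS-stimulated exosomes is not decided here. The labels give no age, dose or time after injection, and no word on single scallops or pools behind each library. The p-values therefore take in only library-to-library spread, possibly a technical one.

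Alpha and beta tubulin are the subunits of microtubules, the hollow filaments on which cells move cargo, separate chromosomes and build cilia. One alpha and one beta chain fold with the help of the cytosolic chaperonin and of dedicated cofactors, pair into a dimer, and add to the filament end. Animal genomes carry several copies of each, and some copies serve cilia or sperm tails while others serve the general cytoskeleton. In immune cells microtubules carry vesicles and position the nucleus and organelles.

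Library totals were 19894628 to 45831950 estimated counts, about 5127481 to 11751782 sequenced fragments at 3.86 to 3.96 counts per fragment. The PBS 1 library stood apart, with the lowest total, and 17.8% of its counts fell on 2 genes of scaffold38697 that took 0.0318% to 0.0979% elsewhere. Its TMM scaling factor was 0.810, against 0.989 to 1.07 in the others, so a copy can rank low in PBS 1 by FPKM and high by scaled counts. FPKM (fragment counts scaled by transcript length and library depth) is used here to compare copies with each other, because it corrects for length. CPM (counts per 1e6 counts, scaled by TMM) is used to compare one copy between groups, and fold changes are log2 with a standard error (SE). A copy is said to have risen or fallen where the Benjamini-Hochberg adjusted p of edgeR's quasi-likelihood test, over all 11678 tested genes, was under 0.05. The hemocyte label was checked against 26 genes described as laccase, peroxidasin, transglutaminase or integrin beta, whose summed level was 2639 to 2711 CPM in LPS_T, 3101 to 3245 CPM in NOR_T and 3773 to 4078 CPM in PBS. Laccase-3-like (scaffold63699.20), a copper oxidase, alone averaged 1671, 2227 and 3042 CPM in LPS_T, NOR_T and PBS, and peroxidasin homolog (scaffold64279.168), a matrix peroxidase, 252, 227 and 149 CPM. Without laccase-3-like the remaining 25 genes summed to 989 to 1031 CPM in LPS_T, 927 to 987 CPM in NOR_T and 858 to 896 CPM in PBS, the reverse order, in a sum chosen after the data were seen. Only 6 of the 26 were tested, and 2 rose and 1 fell in each exosome group. Among all tested genes 17.9% rose and 15.2% fell in LPS_T, and 11.4% rose and 13.5% fell in NOR_T. Counts out of 6 are too few to set against these shares. Of the 26, 2, 8 and 4 had no counts in LPS_T, NOR_T and PBS. The 9 muscle genes (paramyosin, troponin, twitchin, striated myosin heavy chain) were also present, at 3511 to 4046 CPM in LPS_T, 3644 to 3975 CPM in NOR_T and 3583 to 3943 CPM in PBS. Paramyosin-like (scaffold59679.8), a thick filament protein, averaged 682, 675 and 618 CPM in LPS_T, NOR_T and PBS, and twitchin-like (scaffold31403.20) 141, 126 and 143 CPM.

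The copies were unevenly spread over the genome assembly, whose build is not given in the sources used here. Gene IDs carry the prefix evm.TU., left out below. Of the 15 beta copies, 8 lay in one array of 170.8 kb on scaffold42195 (positions 212585 to 383407), all on the plus strand and with 5 other genes between them. One of the 8 is a merged gene model, whose ID joins scaffold42195.9 to scaffold42195.12. Of the 11 alpha copies, 2 lay side by side on scaffold55215, at positions 138712 to 142540 and 144319 to 162434 of the plus strand, and 3 lay next to one another on the minus strand of scaffold8357. A further pair of beta copies lay on scaffold24507, and 11 copies were alone on their scaffold. All 11 alpha copies carried the KEGG orthology (KO) entry for alpha tubulin and no other gene did. The entry for beta tubulin was carried by 21 genes, the 15 beta copies and 6 genes whose descriptions differ. Of those 6, 5 lie within or just behind the scaffold42195 array, and the remaining one is described as delta tubulin. One of the 5, scaffold42195.20, is described as tubulin, beta 2C-like, and missed the wording by its comma.

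Neighbouring copies of such families can be nearly identical in their coding part, and reads that match several copies may have been split between them or counted for one. How the authors counted such reads is not given in the sources used here, and no sequence of the copies was at hand to measure their likeness. The kit does not mark strand, so the overlap of genes on opposite strands is not resolved either. Values of single copies are therefore uncertain in their split, and counts summed over the alpha and over the beta copies are given further down. A sum of counts does not depend on a split within the class. It would still depend on the likeness of the copies if shared reads were dropped or counted for every copy. Summed FPKM, used for shares and for the ratio of alpha to beta, depends on the split too, because copies differ in length. Reads shared with the 5 array genes that carry the beta entry but lie outside the copies still affect the beta sum.

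Expression separated the copies into 4 kinds. Of the 26, 18 reached an FPKM of 1 in at least 3 libraries and were tested, 8 alpha and 10 beta. Among these, 7 were abundant, meaning a mean FPKM over the 9 libraries of at least 48.8, the top 10% of tested genes. They were 3 alpha copies (scaffold55215.10, scaffold55215.9, scaffold8357.25) and 4 beta copies (scaffold42195.17, scaffold42195.24, scaffold42195.15 and scaffold42195.25). One more high alpha copy, scaffold64139.6, is described as testis-specific after an entry of the Yesso scallop Mizuhopecten yessoensis. The other 10 tested copies were low, with means of 1.37 to 28.0 FPKM, and 8 copies, 3 alpha and 5 beta, were silent in the sense that they did not pass the filter. The most abundant copy was scaffold55215.10 (tubulin alpha-1 chain-like), with a mean of 1870.4 FPKM and rank 55 among all genes of the table. It was followed by scaffold42195.17 (tubulin beta-4B chain) at 990.2, scaffold55215.9 (tubulin alpha-1A chain) at 671, scaffold42195.24 (tubulin beta chain isoform X2) at 597 and scaffold64139.6 at 438 FPKM.

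**Figure D1:**
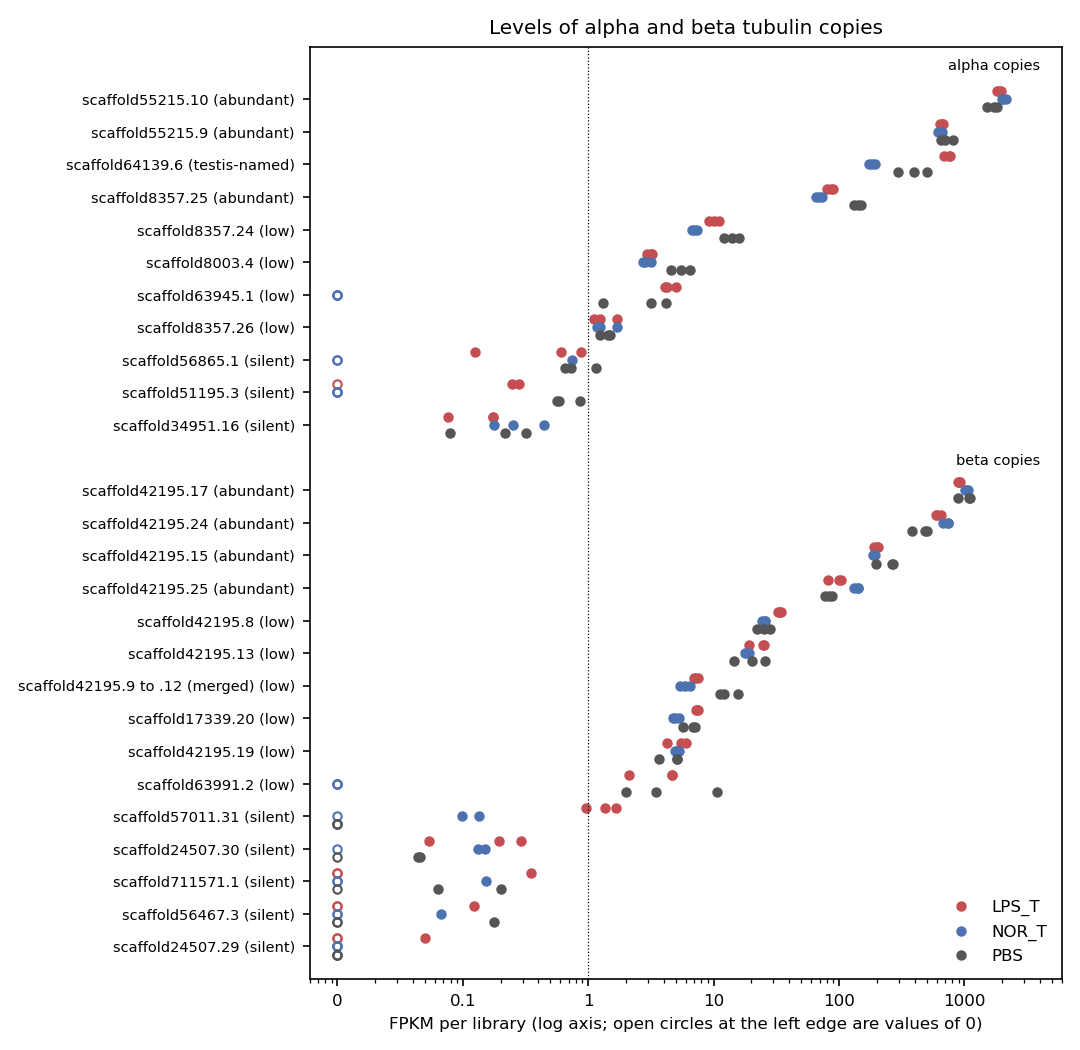
FPKM of each of the 26 tubulin copies in each of the 9 libraries (log axis, 1 point per library; copies ordered by mean FPKM within class, open circles for values of 0, and a dotted line at an FPKM of 1). The copies range from 31 of 72 values at 0 among the 8 silent ones to 1509 FPKM or more in every library for scaffold55215.10.

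A few copies made up most of each class. The scaffold55215 pair gave 75.2% ± 0.904 of the summed alpha FPKM in LPS_T, 91.1% ± 0.327 in NOR_T and 81.0% ± 2.39 in PBS (mean ± SD, n = 3 each, as throughout). The scaffold42195 array gave 99.3% ± 0.105 of the summed beta FPKM in LPS_T, 99.8% ± 0.0135 in NOR_T and 99.4% ± 0.157 in PBS. Together all copies took 0.661% to 0.750% of the counts of a library.

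Counted over the 18 tested copies, edgeR called more falls than rises against PBS. For both exosome groups taken as one mean against PBS, 2 copies rose and 10 fell, where 14.6% of all tested genes rose and 15.0% fell. In LPS_T against PBS 2 rose and 7 fell (all tested genes: 17.9% rose, 15.2% fell), and in NOR_T against PBS 2 rose and 10 fell (11.4% rose, 13.5% fell). LPS_T against NOR_T had 6 copies higher and 3 lower (12.6% higher and 8.89% lower among all tested genes). Against PBS, falls were more frequent among the copies than among all tested genes and rises were not, while in LPS_T against NOR_T both directions were more frequent. These counts include 2 copies that had no counts in NOR_T and passed the filter through the other groups, and copies that share reads are not independent of each other. The median log2 change of the 18 copies was -0.27 for both exosome groups, -0.12 for LPS_T, -0.42 for NOR_T and 0.16 for LPS_T against NOR_T, and that of all tested genes was 0.0043, 0.0271, -0.0021 and -0.0047. Without PBS 1 the counts were 3 higher and 10 lower, 3 and 7, 3 and 9, and 7 and 4, in the same order of comparisons. In limma on log2(FPKM + 1) and on log2(FPKM + 0.1), which are not rescaled by TMM, 3 copies rose and 3 fell in LPS_T against PBS, so falls did not outnumber rises there; for both exosome groups 2 rose and 6 fell, and in NOR_T 2 rose and 7 fell. With library-size scaling only, 3 rose and 6 fell in LPS_T against PBS, 3 rose and 8 fell in NOR_T against PBS, and 7 were higher and 1 lower in LPS_T than in NOR_T. By pattern, 6 copies fell in both exosome groups, 1 rose in both (scaffold42195.24) and 1 rose in LPS_T and fell in NOR_T (scaffold64139.6). Against PBS, 1 copy was called in LPS_T alone (scaffold42195.17, lower), 4 in NOR_T alone, of which scaffold42195.25 rose and 3 fell, and 5 in neither. Both exosome groups are set against the same PBS libraries, so these 2 comparisons are not independent.

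**Figure D2:**
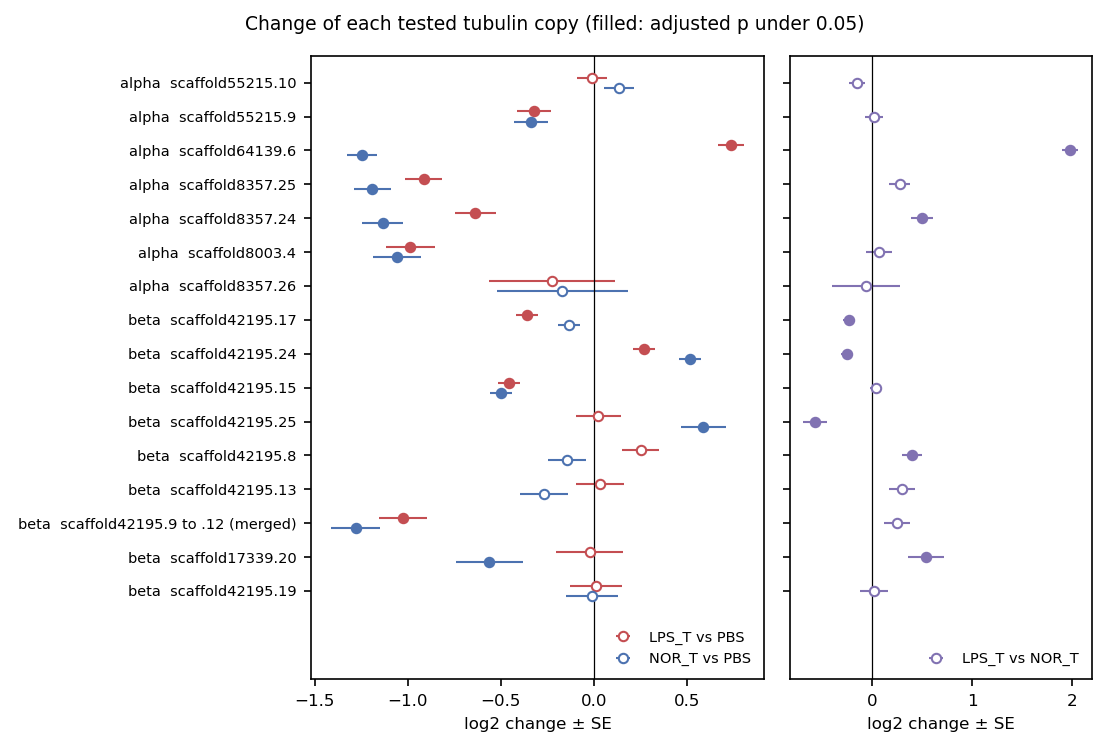
Log2 change ± SE (edgeR) of 16 tested tubulin copies, for LPS_T and NOR_T against PBS (left) and for LPS_T against NOR_T (right); filled points have an adjusted p under 0.05. The other 2 tested copies had no counts in NOR_T and are left out. Scaffold64139.6 alone lies on opposite sides of 0 in the 2 exosome groups with both points filled.

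The testis-named alpha copy scaffold64139.6 (scaffold64139, positions 129195 to 134663, plus strand) had the largest log2 difference between LPS_T and NOR_T of the 16 tested copies with counts in all groups. It stood at 1088, 1249 and 1152 CPM in LPS_T, at 301, 305 and 278 CPM in NOR_T, and at 676, 788 and 633 CPM in PBS. The 3 groups did not overlap, LPS_T being highest and NOR_T lowest. It rose in LPS_T against PBS by a log2 change of 0.73 (SE 0.07, edgeR adjusted p = 1.70e-06) and fell by 1.25 in NOR_T against PBS (SE 0.08, adjusted p = 1.36e-08). LPS_T exceeded NOR_T by 1.98 (SE 0.08, adjusted p = 8.91e-11). The mean of the 2 exosome groups, which moved in opposite directions, lay somewhat below PBS, with a log2 change of -0.26 (SE 0.06, adjusted p = 0.00641). That last call was lost without PBS 2 (-0.16, adjusted p = 0.0674), with library-size scaling only (-0.16, adjusted p = 0.271) and in limma on unscaled log2(FPKM + 1) (-0.08, adjusted p = 0.724). Its share of the summed alpha FPKM was 21.7% ± 1.05 in LPS_T, 6.20% ± 0.370 in NOR_T and 13.3% ± 2.59 in PBS. Set against the most abundant copy, scaffold64139.6 reached 0.390 ± 0.0230 of the FPKM of scaffold55215.10 in LPS_T, 0.0892 ± 0.00573 in NOR_T and 0.236 ± 0.0509 in PBS.

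A gene just behind the beta array, scaffold42195.26, followed the testis-named copy although it lies on another scaffold. It carries the beta tubulin KO entry but is described only as an unnamed protein product of rainbow trout. Its level was 575, 585 and 583 CPM in LPS_T, 134, 135 and 113 CPM in NOR_T, and 327, 367 and 272 CPM in PBS. These groups did not overlap either, in the same order as for the testis-named copy. It rose in LPS_T against PBS (log2 change 0.85, SE 0.09, edgeR adjusted p = 2.20e-06), fell in NOR_T against PBS (-1.34, SE 0.09, adjusted p = 4.11e-08) and was higher in LPS_T than in NOR_T (2.19, SE 0.09, adjusted p = 1.31e-10). The mean of both exosome groups lay 0.24 below PBS on the log2 scale (-0.24, SE 0.08, adjusted p = 0.0231). For this gene the alternatives were not read. Among all tested genes that are not copies, scaffold42195.26 had the second highest Pearson correlation of log2 CPM with scaffold64139.6 over the 9 libraries (0.9971). Taurocyamine kinase (scaffold43873.31), a phosphagen kinase of invertebrates, ranked first (0.9988), with 285, 65.0 and 164.5 CPM on average in LPS_T, NOR_T and PBS. A gene described as the C17orf105 homolog (scaffold56167.22) ranked behind both (0.996). These correlations describe 9 libraries whose groups differ, and they were picked as the highest of all tested genes.

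**Figure D3:**
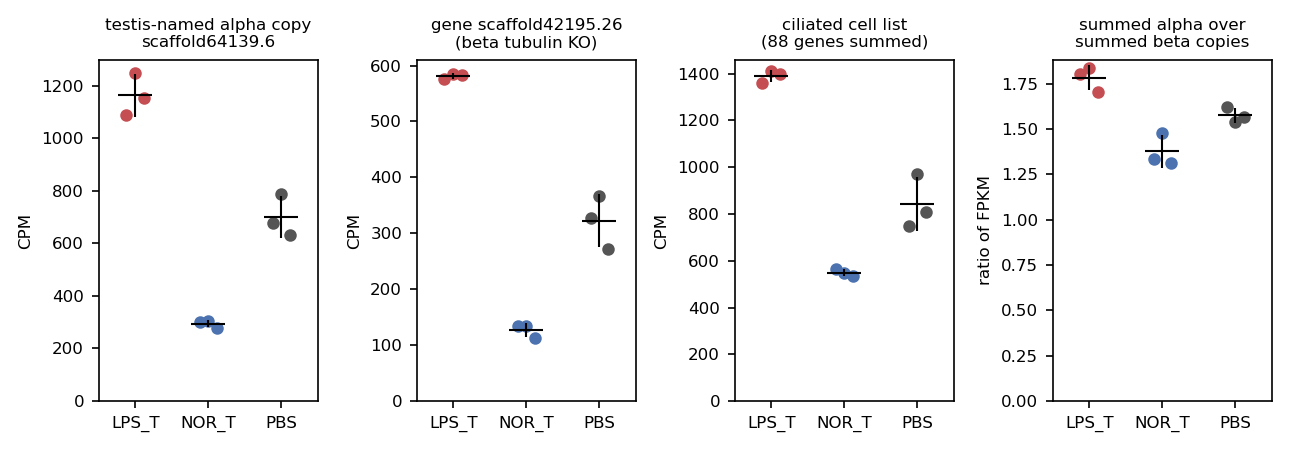
Level of the testis-named alpha copy scaffold64139.6, of the beta tubulin KO gene scaffold42195.26 and of 88 ciliated cell genes summed (all CPM), and the ratio of summed alpha to summed beta FPKM, in each library (points) with the mean and SD of each group (bar and line, n = 3). In all 4 panels LPS_T lies highest and NOR_T lowest. The panels are not independent: the alpha sum of the ratio includes the testis-named copy. Scaffold42195.26 is among the genes most correlated with that copy.

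Genes of ciliated cells and of sperm were counted beside these 2 genes. Of 88 genes of the ciliated cell list (axonemal dyneins, cilia- and flagella-associated proteins, radial spoke proteins, tektins and intraflagellar transport proteins), 71 were tested. In LPS_T against PBS 43 rose and 2 fell (all tested genes: 17.9% rose, 15.2% fell), in NOR_T against PBS 3 rose and 34 fell (11.4% and 13.5%), and in LPS_T against NOR_T 46 were higher and 0 lower (12.6% and 8.89%). Their summed level was 1360 to 1410 CPM in LPS_T, 537 to 563.5 CPM in NOR_T and 747 to 973 CPM in PBS, and 3, 7 and 7 of the 88 had no counts in LPS_T, NOR_T and PBS. In both exosome groups together 5 rose and 7 fell. Those with the smallest adjusted p were dynein beta chain, flagellar outer arm-like (scaffold34635.4), at 22.6, 16.3 and 7.85 CPM in LPS_T, NOR_T and PBS, and dynein heavy chain 1, axonemal-like (scaffold64797.2), at 14.4, 14.9 and 6.74 CPM. Both rose in NOR_T against PBS (log2 change 1.06, SE 0.13, and 1.17, SE 0.18), where 34 of the 71 fell and 3 rose. In NOR_T they were thus exceptions in their list. Of 23 testis and sperm genes 22 were tested: 8 rose and 4 fell in LPS_T against PBS, 0 rose and 12 fell in NOR_T against PBS, and 14 were higher and 2 lower in LPS_T than in NOR_T. Their sum was 239 to 256 CPM in LPS_T, 119.6 to 126 CPM in NOR_T and 174 to 187 CPM in PBS, with none of the 23 at 0 in any group. Testis-specific serine/threonine-protein kinase 3-like (scaffold34635.13), a kinase of maturing sperm in mammals, averaged 20.8 ± 2.83 CPM in LPS_T, 3.38 ± 0.665 CPM in NOR_T and 15.7 ± 3.71 CPM in PBS. Spermatogenesis-associated protein 22-like (scaffold36001.39) averaged 3.04 ± 1.06, 2.12 ± 0.258 and 6.56 ± 0.366 CPM in LPS_T, NOR_T and PBS and so had another order. Of the ovary genes, vitellogenin (scaffold25917.13), the egg yolk precursor, averaged 133 ± 8.97 CPM in LPS_T, 63.1 ± 8.54 CPM in NOR_T and 36.0 ± 5.02 CPM in PBS. The other tested ovary gene, zona pellucida sperm-binding protein 4 (scaffold61329.75), an egg coat protein by name, averaged 793 ± 58.5 CPM in LPS_T, 916 ± 9.84 CPM in NOR_T and 869 ± 86.2 CPM in PBS. It was lower in LPS_T than in NOR_T (log2 change -0.21, SE 0.07, edgeR adjusted p = 0.0446) and not called against PBS (adjusted p = 0.167 in LPS_T and 0.484 in NOR_T). The summed level of the 4 ovary genes was 856 to 990.3 CPM in LPS_T, 960 to 997 CPM in NOR_T and 816.5 to 998.5 CPM in PBS, with overlapping groups. Nerve genes were counted as well, and of the 25 only 8 were tested: 1 rose and 0 fell in LPS_T, and 1 rose and 1 fell in NOR_T. At 1 of 8 or fewer, these counts are not above the shares of all tested genes by more than 1 gene. Their sum was 214.9 to 245.5 CPM in LPS_T, 205.9 to 216.5 CPM in NOR_T and 215.6 to 231.8 CPM in PBS. Neurofilament medium polypeptide-like (scaffold53111.39) averaged 47.8, 40.2 and 57.4 CPM in LPS_T, NOR_T and PBS, and synaptotagmin-1-like (scaffold64559.16), named after a vesicle release sensor, 80.1, 91.9 and 76.0 CPM. The part of these cells in the level of the testis-named copy was not tested, and in bulk RNA fewer cells of a type cannot be told apart from less RNA per cell.

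The abundant alpha pair of scaffold55215 showed small differences only. Scaffold55215.10 stood at 2891, 3053 and 2726 CPM in LPS_T, at 3039, 3425 and 3150 CPM in NOR_T, and at 3350, 2604 and 2791 CPM in PBS. The 3 groups overlapped, and the PBS 1 library was the highest of its group by CPM, although by FPKM it was the lowest of all 9. The log2 change was -0.01 (SE 0.08) in LPS_T against PBS, 0.14 (SE 0.08) in NOR_T against PBS and -0.15 (SE 0.08) in LPS_T against NOR_T, with adjusted p of 0.928, 0.266 and 0.242 in edgeR. Without PBS 1 the copy was called higher in NOR_T against PBS (0.26, adjusted p = 0.00636), in the mean of both exosome groups (0.17, adjusted p = 0.0387) and lower in LPS_T than in NOR_T (-0.18, adjusted p = 0.0245). With library-size scaling only, NOR_T against PBS was called too (0.24, adjusted p = 0.0437).

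Its neighbour scaffold55215.9 stood at 1289, 1340 and 1209 CPM in LPS_T, at 1203, 1358 and 1232 CPM in NOR_T, and at 1842, 1370 and 1583 CPM in PBS. All 6 exosome libraries lay below the 3 PBS libraries. It fell in LPS_T (log2 change -0.32, SE 0.09, edgeR adjusted p = 0.00975) and in NOR_T (-0.34, SE 0.09, adjusted p = 0.0093) against PBS, and LPS_T and NOR_T were not told apart (0.02, SE 0.09). Both calls were lost with library-size scaling only (-0.19, adjusted p = 0.0933; -0.24, adjusted p = 0.0538) and in limma on unscaled log2(FPKM + 1) (-0.13, adjusted p = 0.471; -0.17, adjusted p = 0.370). The FPKM ratio of scaffold55215.10 to scaffold55215.9, which needs no scaling between libraries, was 2.87 ± 0.0232 in LPS_T, 3.23 ± 0.0239 in NOR_T and 2.33 ± 0.0879 in PBS. The ratio did not overlap between groups, while each copy's own change was small. Because the ratio depends on how reads shared by the pair were split, a differing balance of the pair is not established. The 3 tested genes with the highest correlation of log2 CPM with scaffold55215.10 over the 9 libraries were nuclear protein localization protein 4 homolog (0.9654), a peptidyl-prolyl cis-trans isomerase-like gene (0.9592) and nuclear distribution protein nudE homolog 1-like (0.9455).

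In the beta array the 2 leading copies moved apart. Scaffold42195.17 (positions 326779 to 330295) stood at 503, 527 and 508 CPM in LPS_T, at 592, 596 and 614 CPM in NOR_T, and at 734.5, 609.6 and 632 CPM in PBS. LPS_T lay below both other groups, while NOR_T and PBS overlapped. It fell in LPS_T against PBS (log2 change -0.36, SE 0.06, edgeR adjusted p = 2.76e-04) and was lower in LPS_T than in NOR_T (-0.23, SE 0.06, adjusted p = 0.0125). NOR_T against PBS was not called (-0.13, SE 0.06, adjusted p = 0.130). In limma on unscaled log2(FPKM + 1) no call was left (-0.18, adjusted p = 0.319, in LPS_T against PBS; -0.20, adjusted p = 0.374, in LPS_T against NOR_T). The call of LPS_T against NOR_T was also lost with library-size scaling only (-0.20, adjusted p = 0.091) and without LPS_T 1 (-0.22, adjusted p = 0.0569). The mean of both exosome groups was called lower than PBS (-0.25, SE 0.05, adjusted p = 0.00201), but not with library-size scaling only (-0.14, adjusted p = 0.149) or in limma (-0.08, adjusted p = 0.650).

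Scaffold42195.24 (positions 377905 to 382301) stood at 341, 358 and 366.5 CPM in LPS_T, at 420.4, 408 and 436 CPM in NOR_T, and at 316, 289 and 280.5 CPM in PBS. The groups did not overlap, NOR_T being highest and PBS lowest. It was the only tested copy called higher in both exosome groups, with log2 changes of 0.27 (SE 0.06, edgeR adjusted p = 0.0017) in LPS_T and 0.52 (SE 0.06, adjusted p = 6.94e-06) in NOR_T. Both calls held in all 18 alternatives (log2 change 0.23 to 0.45 in LPS_T and 0.48 to 0.67 in NOR_T). The difference between LPS_T and NOR_T (-0.25, SE 0.06, adjusted p = 0.00407) was lost with library-size scaling only (adjusted p = 0.118) and in limma (adjusted p = 0.374). Its share of the summed beta FPKM was 32.5% ± 1.005 in LPS_T, 33.5% ± 0.729 in NOR_T and 24.1% ± 0.862 in PBS. The FPKM ratio of scaffold42195.24 to scaffold42195.17 was 0.681 ± 0.0248 in LPS_T, 0.691 ± 0.0142 in NOR_T and 0.442 ± 0.0216 in PBS, and every exosome library lay above every PBS library. Together these 2 copies gave 80.2% ± 0.758, 81.9% ± 0.818 and 78.7% ± 0.604 of the beta FPKM in LPS_T, NOR_T and PBS.

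**Figure D4:**
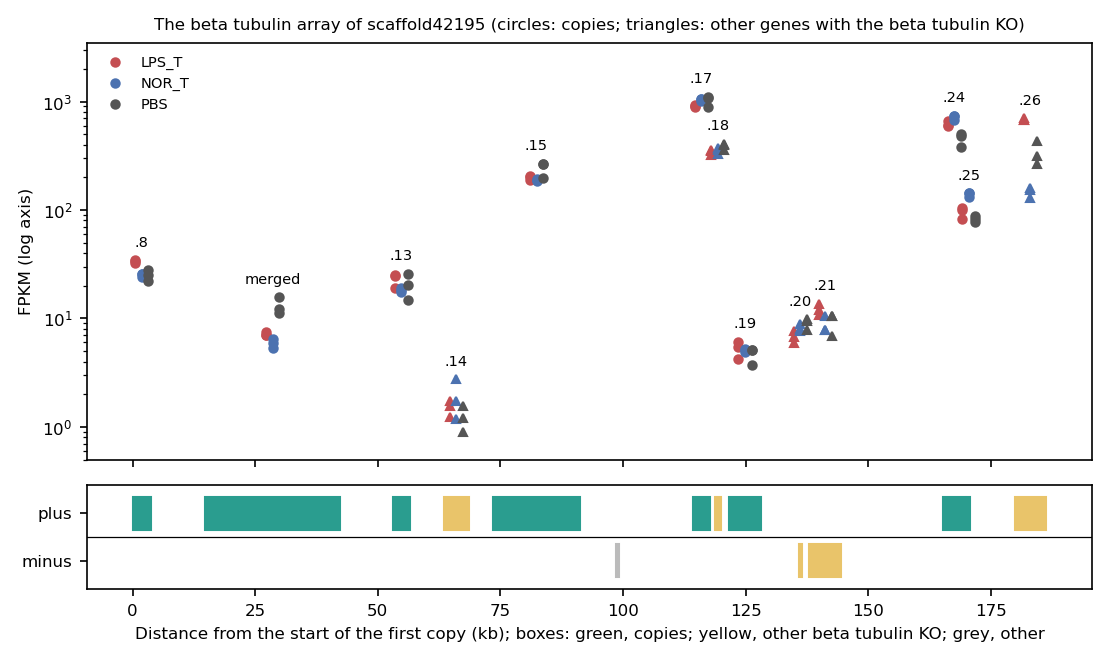
FPKM per library (upper panel, log axis) of the 8 beta copies of the scaffold42195 array (circles) and of 5 other genes with the beta tubulin KO entry (triangles), placed by distance in kb from the start of the first copy with the groups set slightly apart, and gene models by strand (lower panel). Scaffold42195.17 and scaffold42195.24 lead, and scaffold42195.26 at the right end shows the widest gap between LPS_T and NOR_T.

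Scaffold42195.25, a short model of 593 bases that starts 513 bases after scaffold42195.24, stood at 62.5, 61.0 and 47.5 CPM in LPS_T, at 77.6, 88.6 and 86.5 CPM in NOR_T, and at 66.4, 49.5 and 53.0 CPM in PBS. NOR_T was highest, and LPS_T and PBS overlapped. It rose in NOR_T against PBS (log2 change 0.59, SE 0.12, edgeR adjusted p = 0.00163) and was lower in LPS_T than in NOR_T (-0.56, SE 0.12, adjusted p = 0.0021). LPS_T against PBS was not called (0.02, SE 0.12, adjusted p = 0.900). The mean of both exosome groups was called higher (0.31, adjusted p = 0.0353), a call that was lost in 6 of the 9 fits that left out 1 library (lowest 0.22, adjusted p = 0.183, without PBS 2).

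Scaffold42195.15, the fourth abundant beta copy, stood at 489, 544 and 508 CPM in LPS_T, at 474, 519 and 502 CPM in NOR_T, and at 741, 677 and 696 CPM in PBS. Every exosome library lay below every PBS library. It fell by 0.46 in LPS_T (log2 change -0.46, SE 0.06, edgeR adjusted p = 1.17e-05) and by 0.50 in NOR_T (-0.50, SE 0.06, adjusted p = 7.87e-06), and in limma on unscaled values neither was called (-0.27, adjusted p = 0.167; -0.34, adjusted p = 0.114). An unnamed array gene with the beta KO entry, scaffold42195.18, which lies 1065 bases behind scaffold42195.17, also fell in both, with 407, 425 and 363.5 CPM in LPS_T, 381, 459 and 423.5 CPM in NOR_T and 610, 459 and 481 CPM in PBS. In that gene NOR_T and PBS overlapped, and PBS 1 was the highest library. The edgeR log2 change was -0.37 (SE 0.09, adjusted p = 0.00628) in LPS_T and -0.29 (SE 0.09, adjusted p = 0.0324) in NOR_T. The alternatives were not read for scaffold42195.18, so how far these calls depend on PBS 1 or on scaling is not known.

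The largest falls shared by both exosome groups were those of 4 copies, the abundant scaffold8357.25 and others classed as low. Scaffold8357.25 (tubulin alpha-1A chain-like, positions 351762 to 353950, minus strand), also an abundant alpha copy, stood at 132.5, 129.9 and 115 CPM in LPS_T, at 96.1, 112 and 103.5 CPM in NOR_T, and at 283, 207 and 223 CPM in PBS. The exosome libraries lay far below the PBS libraries. It fell by 0.91 in LPS_T and by 1.19 in NOR_T on the log2 scale (SE 0.10 each, edgeR adjusted p = 3.49e-06 and 5.03e-07). LPS_T against NOR_T missed the threshold (0.28, SE 0.10, adjusted p = 0.0598) and passed it in 7 of 18 alternatives (log2 change 0.24 to 0.30, adjusted p = 0.0127 to 0.0422), which were library-size scaling only, both other filters, DESeq2, counts per fragment, and the fits without PBS 1 and without PBS 2. Its neighbour scaffold8357.24 stood at 51.4, 57.4 and 44.7 CPM in LPS_T, at 35.1, 39.1 and 34.7 CPM in NOR_T, and at 88.5, 69.8 and 80.7 CPM in PBS. The groups did not overlap, and the log2 change was -0.64 (SE 0.11, adjusted p = 2.36e-04) in LPS_T and -1.13 (SE 0.11, adjusted p = 1.74e-06) in NOR_T. LPS_T exceeded NOR_T in scaffold8357.24 by 0.50 (SE 0.11, adjusted p = 0.00277). In limma on unscaled log2(FPKM + 1) the LPS_T calls of scaffold8357.24 were lost (-0.42, adjusted p = 0.0683, against PBS; 0.46, adjusted p = 0.0756, against NOR_T). The third model of that scaffold, scaffold8357.26, averaged 1.347 ± 0.299 FPKM in LPS_T, 1.37 ± 0.283 in NOR_T and 1.39 ± 0.134 in PBS, and no comparison was called.

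The merged beta model of scaffold42195 (positions 227447 to 254953) stood at 16.8, 16.1 and 15.1 CPM in LPS_T, at 14.2, 13.8 and 12.2 CPM in NOR_T, and at 35.9, 26.7 and 35.2 CPM in PBS. It fell by 1.03 in LPS_T and by 1.28 in NOR_T on the log2 scale (SE 0.13 each, edgeR adjusted p = 1.69e-05 and 3.41e-06), and no exosome library reached the lowest PBS library. Scaffold8003.4 (tubulin alpha chain-like, positions 36383 to 65066, minus strand) stood at 11.4, 12.7 and 11.8 CPM in LPS_T, at 10.8, 12.7 and 10.7 CPM in NOR_T, and at 25.5, 24.6 and 21.2 CPM in PBS. The exosome groups overlapped each other and lay well below PBS. Its log2 change was -0.98 (SE 0.13, adjusted p = 2.17e-05) in LPS_T and -1.06 (SE 0.13, adjusted p = 2.06e-05) in NOR_T. For scaffold8357.25, the merged model and scaffold8003.4, both calls held in all 18 alternatives.

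The other low beta copies showed smaller differences. Scaffold42195.8 averaged 52.4 ± 1.55 CPM in LPS_T, 39.9 ± 2.21 CPM in NOR_T and 44.2 ± 5.39 CPM in PBS. It was higher in LPS_T than in NOR_T (log2 change 0.40, SE 0.10, edgeR adjusted p = 0.00628; not called in limma on log2(FPKM + 1), 0.41, adjusted p = 0.0752), while LPS_T against PBS missed the threshold (0.25, SE 0.10, adjusted p = 0.0546) and passed it in 6 of 18 alternatives (0.26 to 0.43, adjusted p = 0.0149 to 0.0435), which were library-size scaling only, the stricter filter, both limma settings, counts per fragment and the fit without PBS 1. Scaffold17339.20 averaged 12.3 ± 0.282 CPM in LPS_T, 8.48 ± 0.359 CPM in NOR_T and 12.7 ± 3.98 CPM in PBS. It fell in NOR_T against PBS (-0.56, SE 0.18, adjusted p = 0.0345) and was higher in LPS_T than in NOR_T (0.54, SE 0.18, adjusted p = 0.0444), and each call was lost in 9 of 18 alternatives. Of the 9 fits without 1 library, the NOR_T call was lost in 5 (without LPS_T 3, any NOR_T library or PBS 1; -0.59 to -0.30, adjusted p = 0.0509 to 0.183). The LPS_T against NOR_T call was lost in 7 (without any LPS_T or NOR_T library or PBS 2; 0.48 to 0.57, adjusted p = 0.0506 to 0.152). Without PBS 3 the mean of both exosome groups was called lower too (-0.47, adjusted p = 0.0427; -0.29, adjusted p = 0.181, with all libraries). Scaffold42195.13 lay between 21.8 and 28.4 CPM in LPS_T, between 20.6 and 21.9 CPM in NOR_T and between 22.8 and 29.3 CPM in PBS. Scaffold42195.19 averaged 16.2 ± 3.30 CPM in LPS_T, 15.97 ± 0.922 CPM in NOR_T and 16.1 ± 0.386 CPM in PBS. Neither was called in any comparison with all 9 libraries; without LPS_T 1, scaffold42195.13 was called higher in LPS_T than in NOR_T (0.41, adjusted p = 0.0408; 0.30, adjusted p = 0.112, with all libraries).

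Among the low copies, 2 had no counts in any NOR_T library. They passed the filter only through LPS_T and PBS, and so had to differ from NOR_T; their fold changes are given as bounds against a floor of 3 fragments per library. Scaffold63991.2 (tubulin beta-4B chain-like, positions 49924 to 52723, minus strand) stood at 4.63, 2.13 and 4.62 FPKM in LPS_T, at 0 in all 3 NOR_T libraries, and at 2.00, 3.44 and 10.7 FPKM in PBS. The counts stood for about 76.7, 35.8 and 76.1 fragments in LPS_T and 18.3, 55.1 and 194.9 fragments in PBS, the highest being PBS 3. It was at least 26.8-fold lower in NOR_T than in PBS, or at least 14.9-fold without PBS 3, and at least 17.7-fold higher in LPS_T than in NOR_T. Scaffold63945.1, a short alpha model of 652 bases named after a camel entry, stood at 4.22, 5.03 and 4.08 FPKM in LPS_T, at 0 in all 3 NOR_T libraries, and at 1.32, 3.18 and 4.14 FPKM in PBS. It rested on only 12.6, 15.1 and 12.1 fragments in LPS_T and 2.3, 9.2 and 13.6 fragments in PBS. The copy was at least 2.65-fold lower in NOR_T than in PBS and at least 3.75-fold higher in LPS_T than in NOR_T. Neither copy was called between LPS_T and PBS (edgeR adjusted p = 0.307 and 0.585).

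The 8 silent copies held 31 values of 0 among their 72, and the highest single value was 1.66 FPKM. Of the 8, 6 stayed under an FPKM of 1 in every library, at most 0.855. Scaffold57011.31 (tubulin beta-2B chain-like, positions 616114 to 626093, plus strand) reached 1.66, 0.96 and 1.36 FPKM in LPS_T, with 0.10, 0 and 0.13 FPKM in NOR_T and 0 in the 3 PBS libraries. Its LPS_T counts stood for about 33.6, 19.7 and 27.5 fragments, which makes it at least 5.84-fold higher in LPS_T than in PBS, against the same floor. All LPS_T libraries lay above all others, but the copy missed the filter by 1 library. When all genes were tested without the filter, it was called higher in LPS_T than in PBS (edgeR adjusted p = 7.69e-09) and than in NOR_T (adjusted p = 1.17e-04), and in NOR_T than in PBS (adjusted p = 0.00365), where it rests on few fragments. One other of the 8 was called there, scaffold51195.3, an alpha copy named for this call. It had no counts in NOR_T and was lower there than in PBS (edgeR adjusted p = 4.99e-05, at least 4.23-fold). The fit also called it lower in NOR_T than in LPS_T (adjusted p = 0.00291), but LPS_T rested on only 0, 5.4 and 4.6 fragments. Its LPS_T mean of 0.303 CPM lay under the floor of 0.322 CPM, so no bound can be given for that difference. Scaffold56865.1 (tubulin alpha-3 chain-like, named after a pika entry) averaged 0.534 ± 0.379 FPKM in LPS_T, 0.249 ± 0.431 in NOR_T and 0.847 ± 0.268 in PBS, with overlapping groups.

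Summed over each class, the log2 change in these comparisons lay between -0.24 and 0.17, smaller than that of the most changed copies but not than that of every copy. The 11 alpha copies together averaged 5525 ± 295 CPM in LPS_T, 4918 ± 298.5 CPM in NOR_T and 5559 ± 631 CPM in PBS. No comparison of the alpha sum was called: the log2 change was -0.01 (SE 0.08) in LPS_T against PBS, -0.18 (SE 0.08) in NOR_T against PBS and 0.17 (SE 0.08) in LPS_T against NOR_T, with edgeR adjusted p of 0.943, 0.110 and 0.143. Without the testis-named copy the alpha sum was 4365 ± 243, 4626 ± 292 and 4864 ± 672 CPM in LPS_T, NOR_T and PBS, and NOR_T no longer lay lowest; this sum was added after the data were seen. The 15 beta copies together averaged 1570 ± 50.2 CPM in LPS_T, 1704 ± 40.4 CPM in NOR_T and 1855 ± 135 CPM in PBS. The beta sum fell in LPS_T against PBS (-0.24, SE 0.06, adjusted p = 0.00617), and NOR_T against PBS was not called (-0.12, SE 0.06, adjusted p = 0.163). For both exosome groups together it fell by 0.18 (log2 change -0.18, SE 0.05, adjusted p = 0.0153). The fall in LPS_T depends on which genes are counted as beta tubulin. With the 5 array genes that carry the beta KO entry added, a sum chosen after the data were seen, the level was 2565 ± 72.5 CPM in LPS_T, 2266 ± 70.5 CPM in NOR_T and 2709 ± 219 CPM in PBS. That wider sum was not called in LPS_T against PBS (-0.08, SE 0.06, adjusted p = 0.376) and fell in NOR_T against PBS (-0.26, SE 0.06, adjusted p = 0.00706). For the 15 copies alone, the call in LPS_T was also lost with library-size scaling only (-0.12, adjusted p = 0.310). In limma on the summed log2(FPKM + 1) the sign turned (0.0185, adjusted p = 0.933), where longer and shorter copies weigh differently in the sum and the median of all tested genes stood at 0.166.

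The ratio of summed alpha to summed beta FPKM was 1.78 ± 0.0696 in LPS_T, 1.38 ± 0.0899 in NOR_T and 1.58 ± 0.0427 in PBS, without overlap between the groups. The 5 genes of the array that carry the beta KO entry without the name weigh on this ratio. When they were added to the beta sum, a choice made after their values were seen, the ratio was 1.15 ± 0.0387 in LPS_T, 1.11 ± 0.0560 in NOR_T and 1.13 ± 0.0421 in PBS, and the groups overlapped. The groups thus separated in the ratio of the described copies, but not once the 5 array genes were added to the beta sum. The testis-named alpha copy weighs on the ratio too, with 21.7% of the summed alpha FPKM in LPS_T, 6.20% in NOR_T and 13.3% in PBS. Its part in the separation of the groups was not tested, so the ratio does not show a shift of the whole class.

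Other genes that make, modify or use microtubules were counted from lists of descriptions, beside shares over all tested genes of 17.9% risen and 15.2% fallen in LPS_T and 11.4% risen and 13.5% fallen in NOR_T. All 8 subunits of the cytosolic chaperonin, the ring complex that folds tubulin and actin, fell in every comparison with PBS, and all 8 were lower in LPS_T than in NOR_T; their summed level was 1084 to 1196 CPM in LPS_T, 1483 to 1638 CPM in NOR_T and 3330 to 3525 CPM in PBS. The gamma subunit (scaffold21081.56) averaged 150 ± 3.87 CPM in LPS_T, 200.3 ± 12.9 CPM in NOR_T and 435 ± 18.3 CPM in PBS, and the theta subunit (scaffold17381.1) changed by -1.76 in LPS_T and -1.17 in NOR_T on the log2 scale (SE 0.06 each). Of 8 tested prefoldin subunits, which hand new chains to the chaperonin, 0 rose and 3 fell in LPS_T, and 1 rose and 2 fell in NOR_T; subunit 6-like (scaffold38493.1) averaged 42.6, 52.1 and 67.1 CPM and subunit 5-like (scaffold31777.77) 62.0, 63.7 and 83.1 CPM in LPS_T, NOR_T and PBS. Of 10 folding cofactor genes 2 rose and 1 fell in each exosome group. The one that fell was tubulin-folding cofactor B-like (scaffold64999.3), which helps to handle alpha tubulin after the chaperonin, at 42.2 ± 3.24 CPM in LPS_T, 54.6 ± 2.41 CPM in NOR_T and 129.5 CPM in PBS (log2 change -1.62 and -1.25, SE 0.08 each, edgeR adjusted p = 2.59e-10 and 1.82e-08). Phosducin-like protein 3 (scaffold14127.14), a partner of the chaperonin, rose in LPS_T (0.71, SE 0.07, adjusted p = 2.49e-06) and was not called in NOR_T (0.21, SE 0.07, adjusted p = 0.0547).

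The remaining lists were counted in the same way, against PBS. The shares over all tested genes were 17.9% risen and 15.2% fallen in LPS_T, and 11.4% risen and 13.5% fallen in NOR_T. Genes named below were picked by smallest adjusted p within each list and do not stand for the list. Of 11 other tubulins and gamma-tubulin complex genes, which start new filaments or belong to centrioles, 2 rose and 1 fell in LPS_T, and 0 rose and 1 fell in NOR_T; gamma-1 tubulin (scaffold61191.36) averaged 34.1, 30.1 and 26.3 CPM and delta tubulin (scaffold56383.4) 1.55, 1.28 and 3.13 CPM in LPS_T, NOR_T and PBS. Of 30 tubulin modifying enzymes 16 were tested, and of these 2 rose and 1 fell in LPS_T, and 1 rose and 2 fell in NOR_T. Polyglutamylase TTLL9 (scaffold63833.22), which adds glutamate chains to tubulin, averaged 3.18, 3.58 and 7.14 CPM in LPS_T, NOR_T and PBS, and the like enzyme TTLL5 (scaffold61267.14) 9.78, 9.32 and 6.48 CPM. The single tested severing gene, katanin p80-like (scaffold61329.20), fell in LPS_T (-0.30, SE 0.09, edgeR adjusted p = 0.0145) and was not called in NOR_T (-0.20, SE 0.09, adjusted p = 0.110). Of 23 microtubule-associated proteins 19 were tested, and of these 2 rose and 1 fell in LPS_T, and 4 rose and 2 fell in NOR_T. Echinoderm microtubule-associated protein-like 2 (scaffold20823.4) rose in both (log2 change 0.78 and 0.68, SE 0.07 each). So did CAP-Gly domain-containing linker protein 4-like (scaffold61639.14), a filament end binder by name, by 0.36 and 0.25 (SE 0.06 each). Of 53 kinesins, the motors that mostly walk to the plus end, 28 were tested. Of these 7 rose and 1 fell in LPS_T, and 3 rose and 4 fell in NOR_T, with kinesin-like KIF28P (scaffold34235.37) at 5.97, 5.77 and 1.87 CPM in LPS_T, NOR_T and PBS. Kinesin light chain (scaffold33159.3), which binds cargo, averaged 21.2, 21.5 and 30.6 CPM. Of 11 cytoplasmic dynein and dynactin genes, the minus-end motor and its activator, 10 were tested. Of these 2 rose and 1 fell in LPS_T, and 1 rose and 0 fell in NOR_T. Cytoplasmic dynein 1 heavy chain 1-like (scaffold12303.31) averaged 683 ± 17.2 CPM in LPS_T, 578 ± 14.2 CPM in NOR_T and 548 ± 31.4 CPM in PBS, and dynactin subunit 1-like (scaffold61253.64) 73.0, 69.1 and 59.3 CPM.

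All 26 copies belong to the KEGG phagosome pathway of the table, since microtubules carry phagosomes inward. Of its 99 tested genes 18 are tubulin copies, and these gave 10 of the 30 genes that fell in NOR_T against PBS, 7 of the 26 that fell in LPS_T and 10 of the 33 that fell in both groups together. Of the 10 copies that fell in NOR_T, and likewise in both groups together, 2 are those without counts in NOR_T, which passed the filter through the other groups only. Among the other 81 genes of the pathway 24.7% fell in NOR_T, 23.5% in LPS_T and 28.4% in both groups together, against 13.5%, 15.2% and 15.0% of all tested genes. Of the 99 genes, 17 rose in NOR_T, 21 in LPS_T and 18 in both groups together, with 2 tubulin copies among them each time. Among all tested genes 11.4%, 17.9% and 14.6% rose in these comparisons, so rises in the pathway were above those shares too. Of the 3 tested genes most correlated with the leading beta copy scaffold42195.17 over the 9 libraries, nucleoporin p58/p45-like had 0.9844, E3 ubiquitin-protein ligase RGLG5-like 0.983 and eukaryotic translation initiation factor 3 subunit M-like 0.9779.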

How the data were processed

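Poly(A) RNA of hemocytes was read from both ends in 9 libraries, made with a strand-unaware kit, per the labels' protocols. Per the submitters' processing notes the authors used HISAT, StringTie and edgeR; their versions, the genome build and how reads shared by genes were counted are not stated there. For each gene and library the authors deposited an estimated count. They also deposited an FPKM, already scaled by them for length and depth. Low estimated counts pile up near multiples of 3.86 to 3.96, so counts are not single fragments; they were used as whole numbers. All 18 value columns were matched to samples by name.

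The estimated counts were tested with edgeR 4.0.16 in R 4.3.3 (TMM, quasi-likelihood, 1 mean per group, all 9 libraries) for genes that reached an FPKM of 1 in 3 or more libraries. The SE is the absolute change over the square root of F. Alternatives were DESeq2 1.42.0, limma 3.58.1 on log2(FPKM + 1) and log2(FPKM + 0.1), other scalings and filters, a replicate block and each library left out. The steps were tested on simulated counts. All copies that passed the filter are named. Silent ones are named only if a library reached an FPKM of 1, except scaffold51195.3, named for its call without the filter. From each list up to 2 genes are named, by smallest adjusted p for both exosome groups against PBS. The copies and lists were chosen with earlier results of these data known. Floors and bounds cover counting error only. Figures were drawn with matplotlib 3.10.9.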

Additional observations from a re-analysis of the deposited data

Results flagged for a closer look

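The testis-named alpha copy scaffold64139.6 stood out because the exosome groups moved in opposite directions from PBS, and the test of LPS_T against NOR_T gave a log2 difference of 1.98 (SE 0.08, edgeR adjusted p = 8.91e-11). All 3 LPS_T libraries lay above PBS and all 3 NOR_T libraries below it. The difference kept its sign and its call in all 18 alternatives, between 1.91 and 2.03. Ciliated cell genes summed to 1360 to 1410 CPM in LPS_T, 537 to 563.5 CPM in NOR_T and 747 to 973 CPM in PBS. Their part in the result was not tested.

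Scaffold42195.26, a gene with the beta tubulin annotation but no tubulin name, lies outside the copies described here and rose in LPS_T against PBS by a log2 change of 0.85 (SE 0.09, edgeR adjusted p = 2.20e-06). Scaffold57011.31, a beta copy that missed the expression filter, reached a mean of 1.33 FPKM in LPS_T, against 0.0776 in NOR_T and 0 in PBS. No outlier test was run within groups of 3 libraries; calls of tested copies that changed when 1 library was left out are given with the copy.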

How the results depend on the processing

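The number of copies called stayed within 1.5 times the reported number, except for LPS_T against NOR_T in limma on log2(FPKM + 1) and on log2(FPKM + 0.1), where 4 copies were called (3 higher, 1 lower) in place of 9. In both limma settings 3 copies rose and 3 fell in LPS_T against PBS, in place of 2 and 7, and 2 rose and 6 fell for both exosome groups, in place of 2 and 10. With library-size scaling only, LPS_T against NOR_T had 7 higher and 1 lower, in place of 6 and 3. Of 1288 values of single copies under the alternatives, 1209 kept their side of the threshold, 60 lost a call, 19 gained one and 0 called values changed sign. The beta sum for both exosome groups against PBS (-0.1814) was -0.0743 with library-size scaling only (adjusted p = 0.495) and turned to 0.1084 in both limma settings (adjusted p = 0.505 and 0.502). For LPS_T against PBS (-0.2404) it was -0.1199 with library-size scaling only, and 0.0185 and 0.0186 in limma. With the 5 array genes of the beta tubulin KO added, a choice made after the data were seen, the beta sum changed by -0.0791 in LPS_T against PBS (adjusted p = 0.376) and by -0.2575 in NOR_T against PBS (called, adjusted p = 0.00706), and turned to 0.1784 in LPS_T against NOR_T (adjusted p = 0.0567), against -0.118. In all, 15 values of uncalled sums changed sign under an alternative, to between -0.0837 and 0.1983, and 0 of them were called. These settings also shift the median of all tested genes: for both exosome groups to 0.0978 with library size only and to 0.1462 and 0.1802 in limma, against 0.0043. With 1 library left out, the alpha sum in NOR_T against PBS ranged from -0.2392 (called, without PBS 2, adjusted p = 0.0461) to -0.075 (without PBS 1). The beta sum in LPS_T against NOR_T ranged from -0.1486 (called, without PBS 1, adjusted p = 0.0267) to -0.0979.

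Libraries with the same replicate number showed little shared deviation from their group means (9 pairs, r from -0.0248 to 0.0798). With 3 libraries per group this check cannot exclude a pairing, so whether the numbers pair samples is left undecided. With a replicate block the copies called were 2 higher and 10 lower for both exosome groups, 2 and 7 for LPS_T, 2 and 10 for NOR_T, and 6 and 3 for LPS_T against NOR_T, as without it. Depth limits the silent copies and scaffold63945.1, which rest on few fragments.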
